A study of Mus musculus with 48 samples.

Results

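The oligodendrocyte lineage and myelin genes are 37 genes of the 24444 in the table, chosen by symbol from what is known of the lineage. All 37 were found, and each was followed in 48 cortices. They fall into 6 lineage transcription factors, 2 precursor genes, 3 genes of newly formed oligodendrocytes, 10 myelin proteins, 4 enzymes of myelin lipids and acetate supply, 4 junction and axon-contact proteins and 8 other genes of mature cells. The cortices came from male C57BL/6J mice carrying a nonsense allele of the chromatin remodeller Chd8 on a single chromosome (Chd8 V986*/+, HET) and from their wild-type littermates (WT). RNA-seq was done at embryonic stage E14.5 and in mice aged 1, 6 or 12 months, with 6 mice of each genotype at each age and a single hemisphere from each mouse. The allele carries tandem stop codons at residue V986, was made by CRISPR-mediated insertion, and descends from a single male founder, so that all HET mice share that line. Each value is a variance-stabilised level (VST) on a log2 scale with the batch difference already removed, and a difference of 1 is close to a doubling for a gene well above the floor of the scale at 2.14.

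Oligodendrocytes arise from dividing precursors that carry the PDGF receptor alpha and the NG2 proteoglycan. Under transcription factors of the Olig, Sox and Nkx families and the myelin regulatory factor Myrf, precursors leave the cell cycle, pass through a short-lived premyelinating stage, and wrap axons in membrane rich in galactolipids and in a small set of abundant myelin proteins. Precursors reach the mouse cortex from before birth onward, and most myelin is laid down over the first postnatal weeks and months. In bulk tissue, fewer cells of a type and less RNA per cell cannot be told apart, and this holds for each value that follows.

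Chd8 itself was lower in HET mice at each age. In WT mice its lowest, median and highest values were 12.33, 12.60 and 12.66 for embryos, 11.55, 11.73 and 11.87 for 1-month mice, 11.72, 11.75 and 11.78 for 6-month mice, and 11.36, 11.69 and 11.80 for 12-month mice. In HET mice they were 11.60, 11.98 and 12.03, then 10.94, 11.05 and 11.11, then 10.97, 11.14 and 11.17, and 11.09, 11.10 and 11.17 at the same ages. The groups did not overlap at any age. The HET minus WT difference was -0.63 in the embryos (SE 0.08, limma adjusted p = 0.026), and then -0.67 (1 month, SE 0.05, adjusted p = 3e-06), -0.64 (6 months, SE 0.04, adjusted p = 1.1e-07) and -0.54 (12 months, SE 0.06, adjusted p = 0.0026). The E14.5 call was lost in 4 of the fits that each left out 1 mouse (WT replicate 2, 4 or 5 or HET replicate 4, with differences from -0.61 to -0.63). A gene was called where its limma p, adjusted over all genes tested, was below 0.1. Over the whole table, the embryos gave 1 call between genotypes among 16877 genes, the 1-month mice 24 among 17221, the 6-month mice 16 among 17256 and the 12-month mice 8 among 17288.

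The oligodendrocyte genes traced a steep rise from E14.5 to 1 month and a partial decline from 1 to 6 months that depended on the gene. From E14.5 to 1 month, 35 of the 37 rose in WT mice and 35 in HET mice, where 43.4% and 43.7% of all genes tested were called higher. The median change was 4.25 in WT and 4.42 in HET mice on the log2 scale. The axonal adhesion gene Cntn2 fell in both genotypes, with changes of -1.79 in WT and -2.0 in HET mice, where 42.3% and 42.4% of all genes were called lower. From 1 to 6 months, 24 of the 37 fell in WT mice and 22 in HET mice, against 12.3% and 12.8% of all genes. Of these, 20 fell in both genotypes, 4 were called in WT mice alone and 2 in HET mice alone, and the difference between genotypes in this step was itself called for 0 of the 37. The ranges of the 1-month and 6-month mice did not overlap for 21 of the genes that were lower at 6 months in WT mice and for 20 in HET mice, against 4.76% and 4.89% of all genes. Another 5 genes rose in WT mice from 1 to 6 months (Cntn2, Trf, Gpr37, Ndrg1 and Qdpr, against 12.3% of all genes), and 3 of these (Gpr37, Ndrg1 and Qdpr) also rose in HET mice, against 14.0%. If counting did not use strand, reads of Nkx6-2, Gpr17, Cnp, Ermn and Sirt2 can be shared with a protein-coding gene on the opposite strand, and those of Nkx2-2, Enpp6, Bcas1, Mbp, Mog, Tspan2 and Ndrg1 with a noncoding RNA or pseudogene there. Trf has a second gene model on its own strand, and Lpar1 holds a miRNA and a pseudogene on its own strand.

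**Figure D1:**
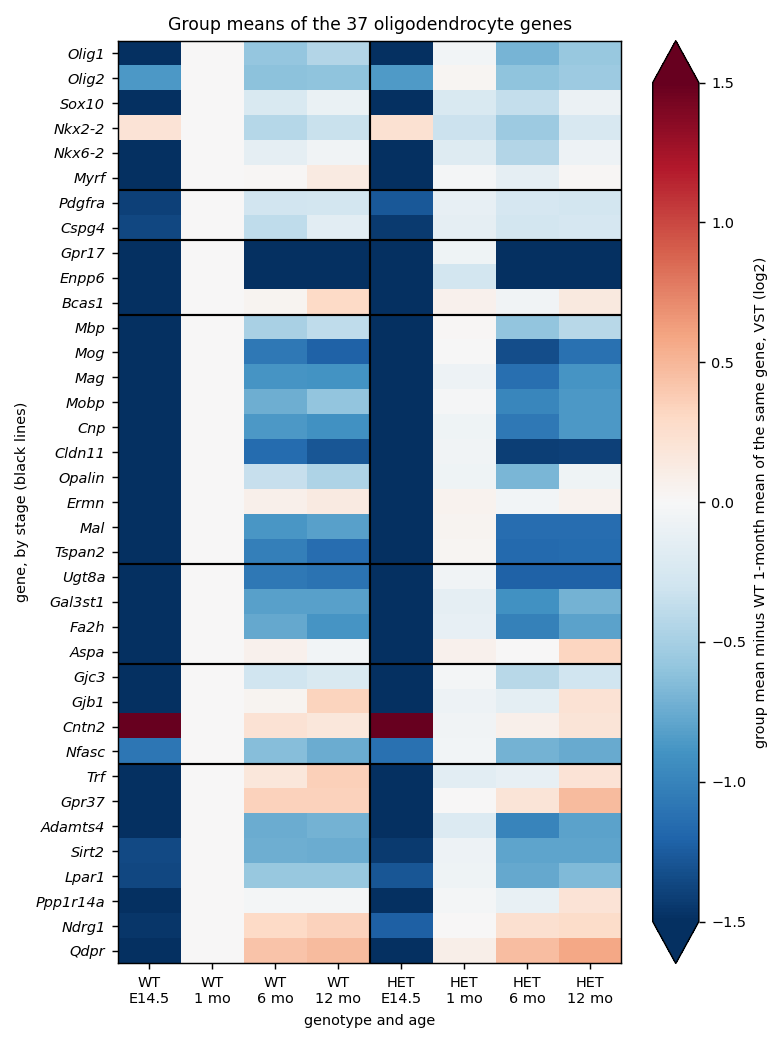
Group mean of each of the 37 genes minus its own WT mean at 1 month, in log2 VST units (colour), by genotype and age (columns, 6 mice each) and stage (blocks between black lines, in the order lineage factors, precursor, newly formed, myelin proteins, lipid enzymes, junction and axon contact, other mature). E14.5 values beyond 1.5 are drawn at the limit of the colour scale; Gpr17 and Enpp6 stay far below their 1-month level at 6 and 12 months in both genotypes, whereas Qdpr, Gpr37 and Ndrg1 lie above theirs.

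Promoter sequence around the annotated start was read for genes that rose together between E14.5 and 1 month, because their regulators Sox10 and Myrf are members of the set. Windows of the RefSeq table for GRCm38.p6 were read for 27 of the 37 genes, and Mbp and Gpr17 were left out by choice. On either strand, the SOX core ACAAAG occurred in 18.7% of all 32851 windows and in those of Cnp, Gjb1, Lpar1, Mag, Mobp, Opalin and Tspan2. The Myrf motif CTGGCAC occurred in 5.01% of windows and in those of Cnp, Lpar1, Mag and Opalin. Both occurred together in 0.977% of windows and in those of Cnp, Mag and Opalin, whose windows are printed with both motifs in capitals, beside the window of the precursor gene Pdgfra, which holds neither. The sequences run 5′ to 3′ on the gene's own strand, and the positions are Mag chr7:30914814-30915113 (minus strand), Cnp chr11:100574689-100574988 (plus), Opalin chr19:41077064-41077363 (minus) and Pdgfra chr5:75152001-75152300 (plus). A gene was listed if any of its windows matched, whereas the percentages are shares of single windows, so the 2 cannot be compared directly. Most of the 27 genes hold neither motif, mature genes such as Mog among them, so Pdgfra is no contrast of stages. A match describes the letters in the window and is no evidence of binding.
Mag: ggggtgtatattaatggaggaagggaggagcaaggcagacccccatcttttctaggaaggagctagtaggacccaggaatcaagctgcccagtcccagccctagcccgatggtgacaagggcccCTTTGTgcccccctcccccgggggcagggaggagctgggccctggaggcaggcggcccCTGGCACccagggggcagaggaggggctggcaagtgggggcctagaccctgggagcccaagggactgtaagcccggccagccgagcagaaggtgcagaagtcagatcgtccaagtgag
Cnp: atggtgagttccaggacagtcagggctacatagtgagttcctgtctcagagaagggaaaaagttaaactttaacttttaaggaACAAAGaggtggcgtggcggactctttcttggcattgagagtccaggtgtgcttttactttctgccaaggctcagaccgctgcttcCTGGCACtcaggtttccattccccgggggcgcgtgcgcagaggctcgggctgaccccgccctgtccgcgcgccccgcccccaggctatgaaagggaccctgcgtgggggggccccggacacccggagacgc
Opalin: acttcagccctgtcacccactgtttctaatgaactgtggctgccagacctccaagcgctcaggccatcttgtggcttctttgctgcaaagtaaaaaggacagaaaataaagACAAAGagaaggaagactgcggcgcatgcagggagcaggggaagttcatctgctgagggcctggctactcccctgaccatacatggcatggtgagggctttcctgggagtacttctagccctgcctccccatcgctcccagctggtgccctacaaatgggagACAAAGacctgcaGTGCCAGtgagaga
Pdgfra: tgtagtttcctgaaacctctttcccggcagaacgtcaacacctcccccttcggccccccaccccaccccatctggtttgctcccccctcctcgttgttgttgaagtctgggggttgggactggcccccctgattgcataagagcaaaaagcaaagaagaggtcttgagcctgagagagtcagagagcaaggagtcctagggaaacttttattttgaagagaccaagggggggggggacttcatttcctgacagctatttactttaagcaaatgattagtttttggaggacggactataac

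The lineage factors differed among themselves in how far they rose and in whether they later declined. For each gene, the 3 values at an age are the lowest, the median and the highest of 6 mice, positions are those of the mm9 annotation, and each difference is HET minus WT. Adjusted p-values are from limma over all genes, exact p-values are two-sided and unadjusted, and 0.0022 is the smallest that 6 mice against 6 allow. Olig2 (ENSMUSG00000039830.8, chr16:91225795-91228922) encodes the basic helix-loop-helix factor that specifies the lineage. Olig2 in WT mice measured 8.76, 9.22 and 9.45 in embryos, 9.81, 10.03 and 10.22 in 1-month mice, 9.33, 9.39 and 9.52 in 6-month mice and 9.28, 9.42 and 9.63 in 12-month mice. Olig2 in HET animals measured 8.82, 9.23 and 9.35 in embryos, 9.95, 10.06 and 10.18 in 1-month mice, 9.26, 9.40 and 9.70 in 6-month mice and 9.31, 9.49 and 9.76 in 12-month mice. Olig2 was intermediate at E14.5, highest at 1 month and lower again at 6 months (WT -0.61, SE 0.07, adjusted p = 1.3e-05, HET -0.63, SE 0.06, adjusted p = 3.7e-06), and the genotypes differed by +0.01 to +0.06 at the 4 ages. Its partner Olig1 rose by 3.28 in WT mice to 1 month and fell to 6 months (WT -0.59, SE 0.08, adjusted p = 6.3e-05, HET -0.66, SE 0.08, adjusted p = 3.1e-05). Sox10 (ENSMUSG00000033006.8, chr15:78985343-78994920) encodes the SRY-box factor that precursors keep through maturation. Sox10 in WT mice measured 5.53, 6.03 and 7.35 in embryos, 10.25, 10.46 and 10.64 in 1-month mice, 9.96, 10.27 and 10.40 in 6-month mice and 10.15, 10.36 and 10.47 in 12-month mice. Sox10 in HET animals measured 5.37, 5.81 and 6.22 in embryos, 10.06, 10.25 and 10.39 in 1-month mice, 9.93, 10.06 and 10.32 in 6-month mice and 10.26, 10.34 and 10.53 in 12-month mice. Sox10 had a lower mean in HET mice at 1 month (difference -0.23, SE 0.06, adjusted p = 0.28, exact permutation p = 0.017), with all 6 HET mice below the WT median of 10.46 and overlapping ranges. The difference was +0.02 (SE 0.06, adjusted p = 0.93) at 12 months. Nkx2-2 (ENSMUSG00000027434.9, chr2:147003282-147019979) encodes a homeodomain factor of early differentiation. Nkx2-2 in WT mice measured 6.05, 7.82 and 8.27 in embryos, 7.13, 7.41 and 7.59 in 1-month mice, 6.71, 6.99 and 7.30 in 6-month mice and 6.94, 7.09 and 7.24 in 12-month mice. Nkx2-2 in HET animals measured 7.36, 7.61 and 7.95 in embryos, 6.80, 7.10 and 7.38 in 1-month mice, 6.17, 6.88 and 7.38 in 6-month mice and 6.97, 7.11 and 7.58 in 12-month mice. Nkx2-2 did not share the rise after E14.5, with a WT change of -0.20 (SE 0.29, adjusted p = 0.52) and a HET change of -0.55 (SE 0.12, adjusted p = 0.00056). Its 1-month level had a lower mean in HET mice (difference -0.32, SE 0.10, adjusted p = 0.36, exact permutation p = 0.011).

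The remaining lineage factors act nearer to myelination. Nkx6-2 (ENSMUSG00000041309.10, chr7:146765276-146768696) encodes a homeodomain factor of myelinating cells. Nkx6-2 in WT mice measured 5.42, 5.70 and 6.34 in embryos, 7.86, 8.23 and 8.58 in 1-month mice, 7.84, 8.07 and 8.50 in 6-month mice and 7.96, 8.14 and 8.48 in 12-month mice. Nkx6-2 in HET animals measured 5.11, 5.58 and 5.69 in embryos, 7.74, 8.07 and 8.23 in 1-month mice, 7.56, 7.79 and 8.04 in 6-month mice and 7.78, 8.14 and 8.43 in 12-month mice. Nkx6-2 had a lower mean in HET mice at 6 months (difference -0.31, SE 0.10, adjusted p = 0.48, exact permutation p = 0.022). It then rose in HET mice from 6 to 12 months by 0.36 (SE 0.11, adjusted p = 0.096). Myrf (ENSMUSG00000036098.8, chr19:10282762-10315238) encodes the factor that switches on myelin genes, and it appears in the files under that symbol although the older annotation calls it Gm98. Myrf in WT mice measured 5.82, 5.92 and 6.30 in embryos, 10.51, 10.77 and 10.96 in 1-month mice, 10.71, 10.75 and 10.88 in 6-month mice and 10.60, 10.80 and 11.15 in 12-month mice. Myrf in HET animals measured 5.08, 5.69 and 5.97 in embryos, 10.42, 10.80 and 10.86 in 1-month mice, 10.34, 10.61 and 10.78 in 6-month mice and 10.58, 10.75 and 11.03 in 12-month mice. Myrf stayed level after 1 month, with 6-month minus 1-month changes of +0.03 (SE 0.06, adjusted p = 0.78) in WT and -0.12 (SE 0.08, adjusted p = 0.38) in HET mice. At E14.5 Myrf had a lower mean in HET mice (difference -0.35, SE 0.15, adjusted p = 0.98, exact permutation p = 0.043).

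The precursor genes rose by 1.40 (Pdgfra) and 1.38 (Cspg4) in WT mice between E14.5 and 1 month, less than most of the set, and changed little afterwards. Pdgfra (ENSMUSG00000029231.9, chr5:75548316-75594229) encodes the receptor for the mitogen PDGF-A. Pdgfra in WT mice measured 9.28, 9.76 and 9.81 in embryos, 11.01, 11.07 and 11.23 in 1-month mice, 10.74, 10.78 and 10.85 in 6-month mice and 10.55, 10.83 and 11.04 in 12-month mice. Pdgfra in HET animals measured 9.34, 9.83 and 10.15 in embryos, 10.66, 10.97 and 11.25 in 1-month mice, 10.62, 10.81 and 11.03 in 6-month mice and 10.68, 10.81 and 10.97 in 12-month mice. Pdgfra fell from 1 to 6 months in WT mice, with a change of -0.29 (SE 0.04, adjusted p = 0.00012), and had a change of -0.13 (SE 0.09, adjusted p = 0.31) in HET mice. Cspg4 (ENSMUSG00000032911.5, chr9:56712911-56747677) encodes the NG2 proteoglycan of precursors and also of pericytes. Cspg4 in WT mice measured 7.83, 8.23 and 8.71 in embryos, 9.39, 9.64 and 9.74 in 1-month mice, 9.16, 9.23 and 9.37 in 6-month mice and 9.12, 9.52 and 9.61 in 12-month mice. Cspg4 in HET animals measured 7.57, 8.28 and 8.51 in embryos, 9.14, 9.46 and 9.79 in 1-month mice, 9.17, 9.34 and 9.45 in 6-month mice and 9.16, 9.36 and 9.61 in 12-month mice. The WT change of Cspg4 from 1 to 6 months was -0.38 (SE 0.06, adjusted p = 0.00026) and the HET change -0.14 (SE 0.09, adjusted p = 0.29). Between genotypes, Pdgfra and Cspg4 differed by +0.04 (SE 0.06, adjusted p = 0.9) and +0.10 (SE 0.05, adjusted p = 0.71) at 6 months, both slightly higher in HET mice.

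The genes of newly formed oligodendrocytes split into a pair that fell strongly with age and Bcas1, which did not. Gpr17 encodes a G protein-coupled receptor that appears briefly as precursors commit to differentiate. Gpr17 in WT mice measured 6.06, 6.77 and 7.29 in embryos, 11.63, 11.89 and 12.17 in 1-month mice, 10.13, 10.30 and 10.54 in 6-month mice and 9.86, 10.29 and 10.45 in 12-month mice. Gpr17 in HET animals measured 6.20, 6.44 and 6.80 in embryos, 11.54, 11.89 and 12.10 in 1-month mice, 10.32, 10.38 and 10.68 in 6-month mice and 9.77, 9.87 and 10.12 in 12-month mice. Gpr17 fell from 1 to 6 months (WT -1.60, SE 0.08, adjusted p = 1.5e-09, HET -1.43, SE 0.08, adjusted p = 1.4e-08) with no overlap between ages, the steepest fall of any of the 37 genes in WT mice. From 6 to 12 months it fell further in HET mice, by 0.52 (SE 0.07, adjusted p = 0.0043), and had a change of -0.05 (SE 0.09, adjusted p = 0.88) in WT mice. At 12 months Gpr17 had a lower mean in HET mice (difference -0.35, SE 0.09, adjusted p = 0.21, exact permutation p = 0.0087), with 5 of the 6 WT mice at 10.22 or above, 5 of the 6 HET mice at 9.95 or below, and WT replicate 3 within the HET range at 9.86. Enpp6 (ENSMUSG00000038173.8, chr8:48072279-48180249) encodes a choline phosphodiesterase used as a marker of cells that have just begun to differentiate. Enpp6 in WT mice measured 2.82, 3.07 and 3.96 in embryos, 9.40, 9.48 and 9.63 in 1-month mice, 7.86, 7.97 and 8.22 in 6-month mice and 7.43, 7.66 and 8.01 in 12-month mice. Enpp6 in HET animals measured 2.77, 3.24 and 3.65 in embryos, 8.70, 9.28 and 9.42 in 1-month mice, 7.11, 7.64 and 7.75 in 6-month mice and 7.47, 7.71 and 8.06 in 12-month mice. Enpp6 fell from 1 to 6 months (WT -1.49, SE 0.07, adjusted p = 5.9e-10, HET -1.65, SE 0.12, adjusted p = 1.9e-07). It had a lower mean in HET mice at 1 month (difference -0.28, SE 0.09, adjusted p = 0.41, exact permutation p = 0.0043) and at 6 months (difference -0.43, SE 0.10, adjusted p = 0.25, exact permutation p = 0.0022), where the 6 HET mice all lay below the 6 WT mice. The difference was +0.05 (SE 0.12, adjusted p = 0.88) at 12 months. Bcas1 (ENSMUSG00000013523.7, chr2:170172491-170253345) marks oligodendrocytes at the start of myelination. Bcas1 in WT mice measured 5.76, 6.86 and 7.42 in embryos, 11.81, 12.07 and 12.16 in 1-month mice, 12.01, 12.06 and 12.19 in 6-month mice and 12.09, 12.18 and 12.73 in 12-month mice. Bcas1 in HET animals measured 5.75, 6.37 and 6.61 in embryos, 11.74, 12.17 and 12.30 in 1-month mice, 11.83, 11.99 and 12.12 in 6-month mice and 11.93, 12.16 and 12.35 in 12-month mice. Bcas1 remained near its 1-month level, with changes of +0.04 (SE 0.05, adjusted p = 0.66) in WT and -0.12 (SE 0.07, adjusted p = 0.29) in HET mice from 1 to 6 months. Gpr17 and Bcas1, like Aspa and Mal, also belong to gene groups that the study chose on these samples, so their direction is not independent of that choice.

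The structural myelin proteins included the largest changes between E14.5 and 1 month. Mbp encodes myelin basic protein, which compacts the cytoplasmic faces of the sheath. Mbp in WT mice measured 8.70, 8.94 and 9.18 in embryos, 16.43, 16.64 and 16.85 in 1-month mice, 16.03, 16.15 and 16.26 in 6-month mice and 16.11, 16.17 and 16.47 in 12-month mice. Mbp in HET animals measured 8.83, 8.98 and 9.06 in embryos, 16.32, 16.69 and 16.85 in 1-month mice, 15.84, 16.08 and 16.11 in 6-month mice and 15.99, 16.21 and 16.41 in 12-month mice. Mbp rose by 7.69 in both genotypes and declined after 1 month (WT -0.49, SE 0.07, adjusted p = 0.00011, HET -0.61, SE 0.07, adjusted p = 3.6e-05). Its genotype difference at 6 months was -0.10 (SE 0.05, adjusted p = 0.73, exact permutation p = 0.074). Mog (ENSMUSG00000076439.5, chr17:37147691-37160343) encodes a glycoprotein of the outermost lamella. Mog in WT mice measured 6.0, 6.41 and 6.57 in embryos, 11.11, 11.27 and 11.56 in 1-month mice, 10.12, 10.21 and 10.41 in 6-month mice and 9.99, 10.05 and 10.20 in 12-month mice. Mog in HET animals measured 5.93, 6.36 and 6.67 in embryos, 11.03, 11.33 and 11.41 in 1-month mice, 9.75, 10 and 10.13 in 6-month mice and 10.03, 10.14 and 10.35 in 12-month mice. Mog fell from 1 to 6 months (WT -1.07, SE 0.07, adjusted p = 1.7e-08, HET -1.32, SE 0.08, adjusted p = 1.4e-08). At 6 months it had a lower mean in HET mice (difference -0.26, SE 0.07, adjusted p = 0.31, exact permutation p = 0.0043), with 5 of the 6 HET mice below the lowest WT mouse at 10.12. Mag (ENSMUSG00000036634.8, chr7:31684202-31699851) encodes the adhesion molecule of the innermost, axon-facing membrane. Mag in WT mice measured 4.0, 4.70 and 4.97 in embryos, 12.61, 12.69 and 12.88 in 1-month mice, 11.70, 11.83 and 12.04 in 6-month mice and 11.78, 11.81 and 11.88 in 12-month mice. Mag in HET animals measured 4.72, 5.05 and 5.32 in embryos, 12.41, 12.70 and 12.81 in 1-month mice, 11.38, 11.64 and 11.82 in 6-month mice and 11.77, 11.80 and 12.03 in 12-month mice. Mag was at its lowest at E14.5, where it had a higher mean in HET mice (difference +0.43, SE 0.17, adjusted p = 0.98, exact permutation p = 0.03). At 6 months Mag had a lower mean in HET mice (difference -0.24, SE 0.07, adjusted p = 0.38, exact permutation p = 0.011).

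Further myelin proteins also had lower means in HET mice at 6 months, in the same libraries and without a call. Mobp (ENSMUSG00000032517.8, chr9:120058860-120090602) encodes a basic protein of compact myelin. Mobp in WT mice measured 3.01, 3.60 and 3.74 in embryos, 12.94, 13.25 and 13.55 in 1-month mice, 12.35, 12.47 and 12.72 in 6-month mice and 12.33, 12.55 and 13.06 in 12-month mice. Mobp in HET animals measured 3.30, 3.76 and 4.25 in embryos, 12.87, 13.28 and 13.39 in 1-month mice, 12.05, 12.25 and 12.50 in 6-month mice and 12.24, 12.34 and 12.60 in 12-month mice. Mobp had the largest rise of the set, by 9.73 in WT and 9.46 in HET mice from E14.5 to 1 month. Its mean was lower in HET mice at 6 months (difference -0.25, SE 0.07, adjusted p = 0.38, exact permutation p = 0.022). Cnp (ENSMUSG00000006782.10, chr11:100436218-100453043) encodes the cyclic nucleotide phosphodiesterase of non-compact myelin. Cnp in WT mice measured 8.52, 8.59 and 8.82 in embryos, 13.49, 13.66 and 13.79 in 1-month mice, 12.63, 12.83 and 12.95 in 6-month mice and 12.58, 12.74 and 12.86 in 12-month mice. Cnp in HET animals measured 8.25, 8.43 and 8.63 in embryos, 13.38, 13.64 and 13.70 in 1-month mice, 12.34, 12.64 and 12.71 in 6-month mice and 12.64, 12.80 and 12.94 in 12-month mice. Cnp was already well above the floor at E14.5, where it had a lower mean in HET mice (difference -0.20, SE 0.08, adjusted p = 0.98, exact permutation p = 0.015). Its mean was again lower in HET mice at 6 months (difference -0.22, SE 0.07, adjusted p = 0.41, exact permutation p = 0.024). Cldn11 (ENSMUSG00000037625.6, chr3:31048868-31063246) encodes the claudin of the radial tight junctions of myelin. Cldn11 in WT mice measured 8.40, 9.17 and 9.60 in embryos, 12.55, 12.76 and 12.90 in 1-month mice, 11.50, 11.60 and 11.68 in 6-month mice and 11.34, 11.42 and 11.64 in 12-month mice. Cldn11 in HET animals measured 7.45, 9.17 and 9.52 in embryos, 12.49, 12.77 and 12.81 in 1-month mice, 11.01, 11.39 and 11.50 in 6-month mice and 11.15, 11.35 and 11.56 in 12-month mice. Cldn11 fell from 1 to 6 months (WT -1.16, SE 0.06, adjusted p = 1.4e-09, HET -1.36, SE 0.08, adjusted p = 1e-08). Cldn11 had a lower mean in HET mice at 6 months (difference -0.25, SE 0.07, adjusted p = 0.32, exact permutation p = 0.0043).

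Mal (ENSMUSG00000027375.8, chr2:127458962-127482431) encodes a proteolipid that sorts myelin membrane. Mal in WT mice measured 4.98, 5.52 and 5.97 in embryos, 13.36, 13.51 and 13.68 in 1-month mice, 12.56, 12.62 and 12.75 in 6-month mice and 12.35, 12.54 and 13.23 in 12-month mice. Mal in HET animals measured 5.34, 5.52 and 5.81 in embryos, 13.29, 13.56 and 13.68 in 1-month mice, 12.10, 12.35 and 12.52 in 6-month mice and 12.21, 12.33 and 12.57 in 12-month mice. At 6 months the highest HET mouse lay below the lowest WT mouse, and Mal had a lower mean in HET mice (difference -0.28, SE 0.06, adjusted p = 0.15, exact permutation p = 0.0022), the smallest adjusted p of the 37 genes at that age. At 12 months the difference in Mal was -0.32 (SE 0.13, adjusted p = 0.35, exact permutation p = 0.048), and it rested on WT replicates 1 and 6, at 13.00 and 13.23, whereas the other 4 WT mice lay between 12.35 and 12.54. Without this pair the 12-month difference was -0.10 for Mal and moved from -0.27 (SE 0.12, adjusted p = 0.4) to -0.07 for Mobp, which was also high in the same mice. Opalin (ENSMUSG00000050121.8, chr19:41136964-41151603) encodes a membrane glycoprotein of mature oligodendrocytes. Opalin in WT mice measured 2.27, 2.71 and 3.25 in embryos, 8.48, 8.81 and 9.09 in 1-month mice, 7.82, 8.56 and 8.80 in 6-month mice and 7.93, 8.13 and 8.97 in 12-month mice. Opalin in HET animals measured 2.02, 2.14 and 2.27 in embryos, 8.57, 8.73 and 8.91 in 1-month mice, 7.51, 8.23 and 8.40 in 6-month mice and 8.50, 8.71 and 8.95 in 12-month mice. Opalin sat at or near the floor at E14.5, where it was not tested between genotypes. It had a lower mean in HET mice at 6 months (difference -0.33, SE 0.16, adjusted p = 0.68, exact permutation p = 0.13) and a higher mean in HET mice at 12 months (difference +0.39, SE 0.16, adjusted p = 0.36, exact permutation p = 0.069), when 4 WT mice lay below all 6 HET mice, WT replicate 4 (8.81) lay among them and WT replicate 3 (8.97) lay above the highest at 8.95. Of the myelin proteins not given in full, Tspan2, a tetraspanin, fell (WT -1.02, SE 0.06, adjusted p = 5.9e-09, HET -1.19, SE 0.07, adjusted p = 1.8e-08) from 1 to 6 months, and the cytoskeletal gene Ermn had a change of +0.08 (SE 0.06, adjusted p = 0.43) and -0.09 (SE 0.10, adjusted p = 0.57) over the same step.

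**Figure D2:**
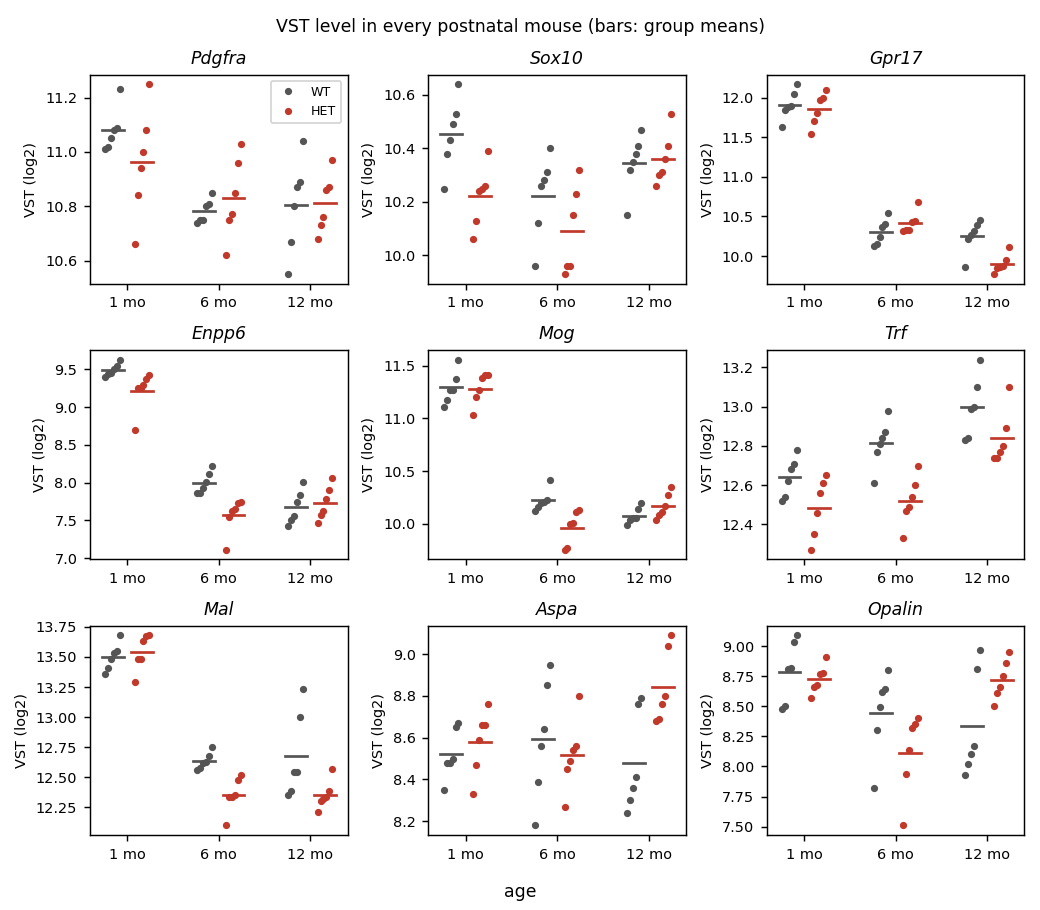
VST level (log2, vertical axes not starting at 0) of 9 genes in every mouse at 1, 6 and 12 months, WT grey and HET red, with bars at the group means of 6 mice. At 6 months the HET points of Enpp6 and Mal lie below all WT points; at 12 months WT replicates 1 and 6 stand above the rest for Mal, and 2 WT mice stand above the other 4 for Aspa and Opalin, at the level of the HET mice.

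Among the enzymes of myelin lipids, the galactolipid pathway fell with age and Aspa did not. Fa2h (ENSMUSG00000033579.9, chr8:113869035-113917724) encodes the hydroxylase that makes the fatty acids of myelin galactolipids. Fa2h in WT mice measured 2.74, 2.99 and 3.55 in embryos, 10.35, 10.60 and 10.77 in 1-month mice, 9.57, 9.79 and 9.98 in 6-month mice and 9.44, 9.70 and 9.91 in 12-month mice. Fa2h in HET animals measured 2.12, 2.84 and 3.45 in embryos, 10.13, 10.48 and 10.65 in 1-month mice, 9.41, 9.59 and 9.72 in 6-month mice and 9.55, 9.75 and 10.07 in 12-month mice. Fa2h fell from 1 to 6 months (WT -0.77, SE 0.07, adjusted p = 2.9e-06, HET -0.89, SE 0.08, adjusted p = 1.8e-06). Fa2h had a lower mean in HET mice at 6 months (difference -0.24, SE 0.07, adjusted p = 0.38, exact permutation p = 0.017). Ugt8a, which makes galactosylceramide, fell (WT -1.07, SE 0.07, adjusted p = 1.7e-08, HET -1.16, SE 0.08, adjusted p = 8e-08), and so did Gal3st1, which sulfates it (WT -0.81, SE 0.07, adjusted p = 1.1e-06, HET -0.79, SE 0.08, adjusted p = 3.7e-06). Aspa (ENSMUSG00000020774.2, chr11:73118494-73140309) encodes aspartoacylase, which frees acetate from N-acetylaspartate. Aspa in WT mice measured 3.13, 3.69 and 4.15 in embryos, 8.35, 8.49 and 8.67 in 1-month mice, 8.18, 8.60 and 8.95 in 6-month mice and 8.24, 8.38 and 8.79 in 12-month mice. Aspa in HET animals measured 2.92, 3.40 and 4.12 in embryos, 8.33, 8.62 and 8.76 in 1-month mice, 8.27, 8.51 and 8.80 in 6-month mice and 8.68, 8.78 and 9.09 in 12-month mice. Aspa had a change of +0.07 (SE 0.11, adjusted p = 0.7) in WT and -0.06 (SE 0.09, adjusted p = 0.68) in HET mice from 1 to 6 months. It rose in HET mice by 0.33 (SE 0.09, adjusted p = 0.078) from 6 to 12 months. At 12 months it had a higher mean in HET mice (difference +0.37, SE 0.11, adjusted p = 0.25, exact permutation p = 0.026), and the difference was +0.32 without WT replicates 1 and 6.

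The junction and axon-contact genes took different directions between 1 and 6 months. The connexin gene Gjc3 fell (WT -0.30, SE 0.10, adjusted p = 0.039, HET -0.39, SE 0.09, adjusted p = 0.0044). Gjb1, another connexin gene, had a change of +0.04 (SE 0.10, adjusted p = 0.85) and -0.07 (SE 0.10, adjusted p = 0.67). Nfasc, whose isoforms anchor paranodes and nodes and are also made by neurons, fell (WT -0.64, SE 0.05, adjusted p = 1e-07, HET -0.67, SE 0.05, adjusted p = 1.2e-07), and the juxtaparanodal gene Cntn2 rose by 0.22 in WT mice and had a change of +0.13 (SE 0.06, adjusted p = 0.14) in HET mice.

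The other genes of mature cells rose or fell after 1 month according to the gene. Trf (ENSMUSG00000032554.9, chr9:103106331-103132774) encodes transferrin, the iron carrier that oligodendrocytes make in quantity. Trf in WT mice measured 8.36, 8.59 and 8.84 in embryos, 12.52, 12.65 and 12.78 in 1-month mice, 12.61, 12.82 and 12.98 in 6-month mice and 12.83, 13.0 and 13.24 in 12-month mice. Trf in HET animals measured 8.52, 8.76 and 9.01 in embryos, 12.27, 12.51 and 12.65 in 1-month mice, 12.33, 12.51 and 12.70 in 6-month mice and 12.74, 12.78 and 13.10 in 12-month mice. Trf rose from 1 to 6 months in WT mice by 0.17 and had a change of +0.04 (SE 0.07, adjusted p = 0.74) in HET mice. It had a lower mean in HET mice at 1 month (difference -0.16, SE 0.06, adjusted p = 0.48, exact permutation p = 0.063), at 6 months (difference -0.29, SE 0.06, adjusted p = 0.16, exact permutation p = 0.0043) and at 12 months (difference -0.16, SE 0.08, adjusted p = 0.44, exact permutation p = 0.093). Adamts4 (ENSMUSG00000006403.6, chr1:173180552-173190768) encodes a matrix metalloprotease of myelinating oligodendrocytes. Adamts4 in WT mice measured 8.40, 8.67 and 8.88 in embryos, 10.51, 10.71 and 10.96 in 1-month mice, 9.77, 9.97 and 10.09 in 6-month mice and 9.52, 10.06 and 10.31 in 12-month mice. Adamts4 in HET animals measured 8.32, 8.71 and 8.83 in embryos, 10.27, 10.51 and 10.74 in 1-month mice, 9.51, 9.74 and 9.92 in 6-month mice and 9.67, 9.95 and 10.09 in 12-month mice. Adamts4 fell from 1 to 6 months (WT -0.75, SE 0.06, adjusted p = 1e-06, HET -0.78, SE 0.08, adjusted p = 8e-06). It had a lower mean in HET mice at 1 month (difference -0.21, SE 0.08, adjusted p = 0.44, exact permutation p = 0.045) and at 6 months (difference -0.24, SE 0.07, adjusted p = 0.39, exact permutation p = 0.017). Lpar1 (ENSMUSG00000038668.8, chr4:58448127-58566770) encodes a receptor for lysophosphatidic acid. Lpar1 in WT mice measured 8.84, 9.26 and 9.61 in embryos, 10.49, 10.64 and 10.75 in 1-month mice, 9.95, 10.03 and 10.25 in 6-month mice and 9.93, 10.01 and 10.26 in 12-month mice. Lpar1 in HET animals measured 9.02, 9.40 and 9.53 in embryos, 10.39, 10.59 and 10.68 in 1-month mice, 9.67, 9.85 and 10.06 in 6-month mice and 9.73, 9.98 and 10.15 in 12-month mice. Lpar1 fell from 1 to 6 months (WT -0.58, SE 0.05, adjusted p = 2.6e-06, HET -0.71, SE 0.06, adjusted p = 1.6e-06). It had a lower mean in HET mice at 6 months (difference -0.20, SE 0.06, adjusted p = 0.45, exact permutation p = 0.026). The deacetylase gene Sirt2 fell (WT -0.73, SE 0.04, adjusted p = 4.8e-09, HET -0.71, SE 0.04, adjusted p = 1e-08). The pteridine reductase gene Qdpr rose (WT +0.43, SE 0.05, adjusted p = 7.8e-06, HET +0.38, SE 0.06, adjusted p = 0.00022), the receptor gene Gpr37 (WT +0.34, SE 0.08, adjusted p = 0.0047, HET +0.19, SE 0.08, adjusted p = 0.094), and Ndrg1 (WT +0.30, SE 0.05, adjusted p = 0.00076, HET +0.23, SE 0.09, adjusted p = 0.086). Ppp1r14a, an inhibitor of myosin phosphatase, had a change of -0.04 (SE 0.12, adjusted p = 0.88) and -0.09 (SE 0.08, adjusted p = 0.51).

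Between genotypes, none of the 37 genes was called by limma at any age, where the share of all genes called was 0.00593% in embryos, 0.139% in 1-month mice, 0.0927% in 6-month mice and 0.0463% in 12-month mice. The study tested with DESeq2 and a batch correction at the same threshold, and called far more genes over the ages. A gene without a call here can therefore be among those the study called. The study formed its gene clusters from genes it had called at some age. Gpr17, Bcas1, Aspa and Mal belong to gene groups it chose in these samples. The sign of the differences was not evenly divided at 6 months. The genes were measured in the same 12 mice, and the mature genes varied together there (median r 0.40), so they are not independent of each other. At that age 32 of the 37 genes had a lower mean in HET mice (50.4% of all genes), the median difference was -0.14 against -0.001 over all genes, and 16 were lower with an unadjusted p below 0.05 and 0 higher (4.05% and 3.54% of all genes). The ranges of the genotypes did not overlap for 2 of the 37, Enpp6 and Mal, both lower in HET mice (0.301% of all genes). All 10 myelin proteins had lower means (7 with an unadjusted p below 0.05, median -0.25), as did all 4 lipid enzymes (2, median -0.12), all 4 junction genes (1, median -0.13), 7 of 8 other mature genes (3, median -0.12), 5 of 6 lineage factors (2, median -0.13) and 2 of 3 newly formed genes, whereas both precursor genes had higher means. Without HET replicate 4, which had the lowest level of the mature genes, 32 remained lower in mean, 13 had an unadjusted p below 0.05 and the median was -0.11.

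Whether genes were called at 12 months depended on WT replicate 3, at 9.86 for Gpr17, 8.76 for Aspa and 8.97 for Opalin. WT replicate 4 lay near it for Aspa (8.79) and Opalin (8.81). Without replicate 3 the calls over the whole table went to 109 higher and 142 lower of 17284 genes. Gpr17 (-0.42, adjusted p = 0.034), Aspa (+0.43, adjusted p = 0.092) and Opalin (+0.52, adjusted p = 0.098) were then called among the 37. At 6 months, Trf was called without WT replicate 3 (-0.33, adjusted p = 0.058) and Mal without HET replicate 3 (-0.31, adjusted p = 0.075).

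At the other ages fewer genes were lower. At 1 month 27 of the 37 were lower in HET mice (51.4% of all genes), 5 of them with an unadjusted p below 0.05 (5.07%), and the median was -0.05 against -0.003. The 1-month median moved to -0.012 without HET replicate 1, with 22 lower and with 4 lower and 3 higher at an unadjusted p below 0.05, and to -0.083 without WT replicate 1, with 33 lower. At 12 months 21 were lower (48.6%), with 3 lower and 3 higher at an unadjusted p below 0.05 (5.39% and 6.18%) and a median of -0.03 against 0.005, which was between -0.059 and -0.002 with 1 mouse left out. At E14.5, with 36 tested, 19 were lower (49.6%), 2 lower and 1 higher at an unadjusted p below 0.05 (2.35% and 2.21%), and the median was -0.02 against 0.001, which was between -0.073 and 0.013 with 1 mouse left out. The E14.5 values of Sox10 depended on WT replicate 5, whose removal moved the difference from -0.40 (SE 0.24, adjusted p = 0.98) to -0.17, and without that mouse 0 genes of the whole table were called.

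**Figure D3:**
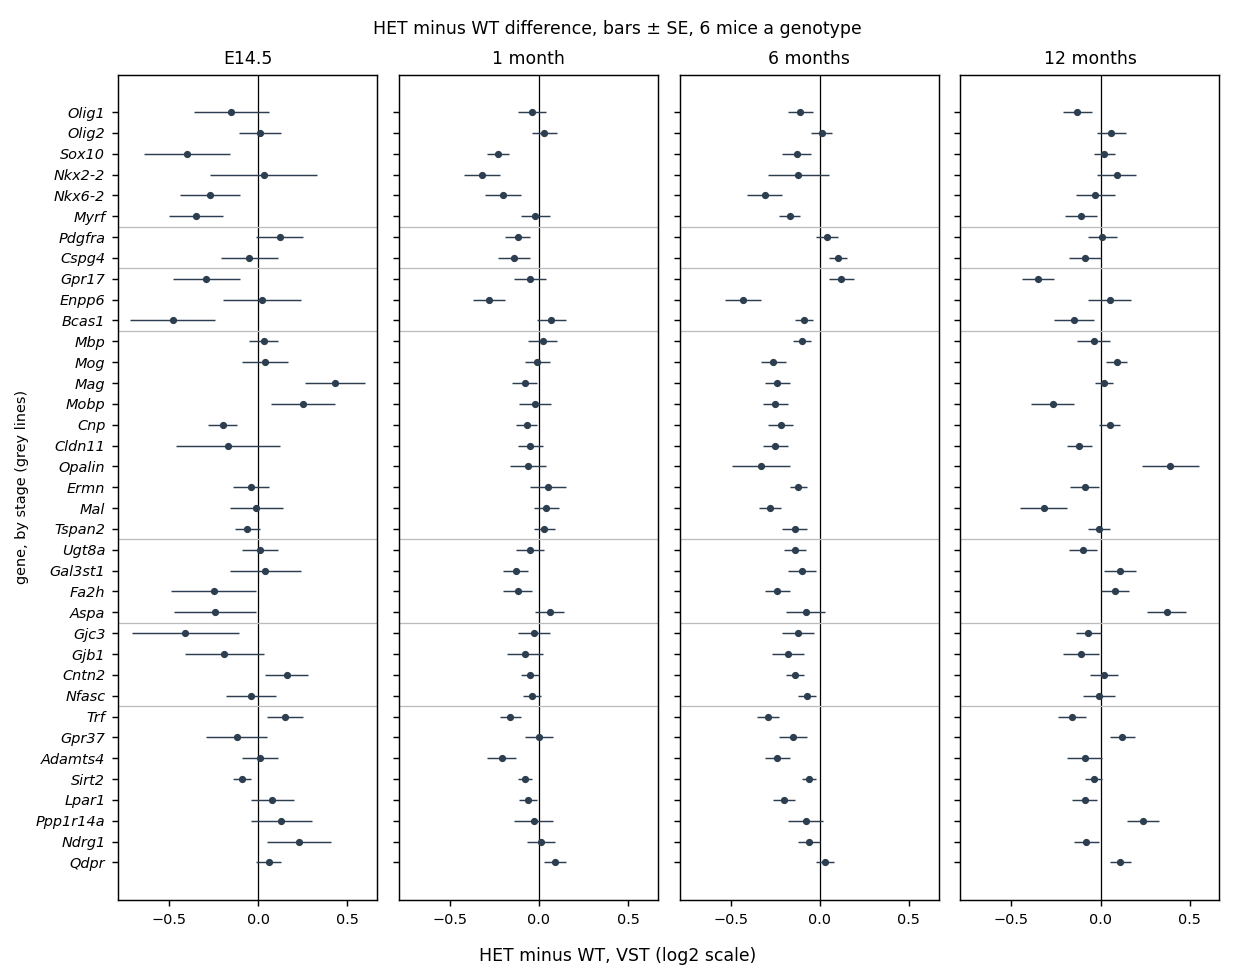
HET minus WT difference in group means (log2 VST, horizontal axis) with its standard error for each of the 37 genes at the 4 ages (panels), 6 mice in each group. At 6 months 32 of 37 points lie left of 0, and none was called at any age; Opalin was not tested at E14.5.

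Markers of other cell types and regions leaned in one direction between genotypes at some ages, but none of those tested was called at any age. Depending on age, between 48.6% and 51.4% of all genes had a lower mean in HET mice. The markers of a list were measured in the same libraries, so they are not independent of each other. At 6 months the mean level of the 26 mature oligodendrocyte genes ranged from 10.92 to 11.14 in WT and from 10.70 to 10.97 in HET mice. Beside it, 12 of 12 astrocyte markers were higher in HET mice (3 with an unadjusted p below 0.05, median 0.12), with list means from 12.43 to 12.65 in WT and 12.46 to 12.78 in HET mice, and 11 of 12 endothelial and mural markers were higher (median 0.15), with list means from 9.06 to 9.42 and from 9.17 to 9.67. Of the remaining lists at 6 months, 5 of 12 neuron, 7 of 12 microglia, 6 of 12 meningeal and choroid plexus, 5 of 10 ganglionic eminence, 3 of 9 striatal, 5 of 8 thalamic and 4 of 7 tested midbrain, hindbrain and spinal cord markers were higher. At E14.5, 20 of 20 tested midbrain, hindbrain and spinal cord markers were lower in HET mice (median -1.09), with list means from 3.28 to 6.93 in WT mice, the highest in replicate 5, and from 3.26 to 4.52 in HET mice, and Hoxa4, Hoxa5, Hoxb8, Hoxc5 and Hoxd4 were near the floor. The 10 ganglionic eminence markers were all higher in HET embryos (4 with an unadjusted p below 0.05, median 0.21), with list means from 9.54 to 10.04 in WT and 9.73 to 9.98 in HET embryos. At 1 month 11 of 12 microglial markers were lower and all 9 striatal markers higher in HET mice (median 0.34), and at 12 months all 9 striatal markers were lower. With the mean of either E14.5 list as a covariate, 0 of the 36 genes tested were lower and 2 higher at an unadjusted p below 0.05. Without a covariate 2 were lower and 1 higher, near the 2.35% and 2.21% of all genes. The share of all genes with a covariate is not given here. The part of regional tissue in the E14.5 differences was not tested. The part of astrocyte, vascular, microglial and striatal RNA in the postnatal differences was not tested.

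Other genes of the lineage, listed by stage, were set beside the 37. At 6 months 25 of 28 other myelin genes were lower in HET mice (12 with an unadjusted p below 0.05, median -0.18), and 1 was called lower, the tetraspanin gene Cd9 with a difference of -0.26 (SE 0.05, adjusted p = 0.083). The junctional adhesion gene Jam3 differed by -0.25 (SE 0.06, adjusted p = 0.29) and Evi2a by -0.27 (SE 0.08, adjusted p = 0.36). By contrast, 4 of 9 other precursor genes, 3 of 8 other newly formed genes and 4 of 11 other lineage regulators were lower, and the receptor phosphatase gene Ptprz1 was at +0.23 (SE 0.05, adjusted p = 0.21). At 1 month 21 of 28 other myelin genes were lower in HET mice (8 with an unadjusted p below 0.05), led by Prr5l at -0.32 (SE 0.07, adjusted p = 0.15).

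The decline between 1 and 6 months extended to other genes of newly formed cells. Of all genes tested over this step, 12.3% were called lower and 12.3% higher in WT mice, and 12.8% and 14.0% in HET mice. In WT mice all 8 other newly formed genes fell, among them the long noncoding RNA 9630013A20Rik by 2.36 (SE 0.11, adjusted p = 1.3e-09), the transcription factor gene Zfp488 by 1.08 (SE 0.09, adjusted p = 4.2e-07) and the growth factor gene Bmp4 by 1.29 (SE 0.11, adjusted p = 1.3e-06), and 7 of the 8 fell in HET mice. Of the other precursor genes 6 of 9 fell in WT and 5 of 9 in HET mice, led by the sialidase gene Neu4 at -0.82 and -0.83. The other myelin genes split, with 11 falling and 8 rising in WT mice and 14 falling and 7 rising in HET mice. The actin-severing gene Gsn fell (-1.36 in WT and -1.40 in HET mice). The cytokine gene Il33 rose by 1.38 and 1.54. From 6 to 12 months, 1 gene of the whole table was called in WT mice, and it was 9630013A20Rik, which fell by 0.90 (SE 0.13, adjusted p = 0.065) and by 0.66 (SE 0.17, adjusted p = 0.06) in HET mice.

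Late change among the 37 genes was called in HET mice, and the spread between mice at 12 months differed between the genotypes. The median SD over expressed genes was 0.184 in WT and 0.122 in HET mice at 12 months, and 0.128 in each genotype at 6 months. The 37 genes did not all share this difference. At 12 months the SD of Mag was 0.03 in WT and 0.10 in HET mice, and that of Mal 0.36 and 0.12. The part of the spread in the calls was not tested. From 6 to 12 months, 0 of the 37 were called in WT mice (0.00579% of all genes), whereas 9 rose in HET mice (1.07%) and Gpr17 fell (2.36%). Those that rose were Sox10 by 0.27, Nkx6-2 by 0.36, Mag by 0.25, Opalin by 0.61, Aspa by 0.33, Gjb1 by 0.37, Trf by 0.32, Gpr37 by 0.28 and Ppp1r14a by 0.32. The changes of these 9 genes in WT mice ran from -0.12 (Aspa) to +0.29 (Gjb1). Leaving out 1 HET mouse at a time gave between 2 and 12 genes called higher, with 2 to 4 when 6-month replicate 2, 3 or 4 or 12-month replicate 1, 2, 3 or 4 was absent. The test of whether this step differed between genotypes called 0 of the 37 (0.0578% of all genes), with 29 differences positive (51.4% of all genes), a median of 0.11 against 0.005, and the largest for Opalin at +0.73 (SE 0.23, adjusted p = 0.34). The corresponding test from 1 to 6 months called 0 of the 37 (0.0% of all genes), with 30 of the 37 differences negative (50.4%) and a median of -0.12 against -0.001, and that from E14.5 to 1 month also called 0 of the 37 (0.0%).

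**Figure D4:**
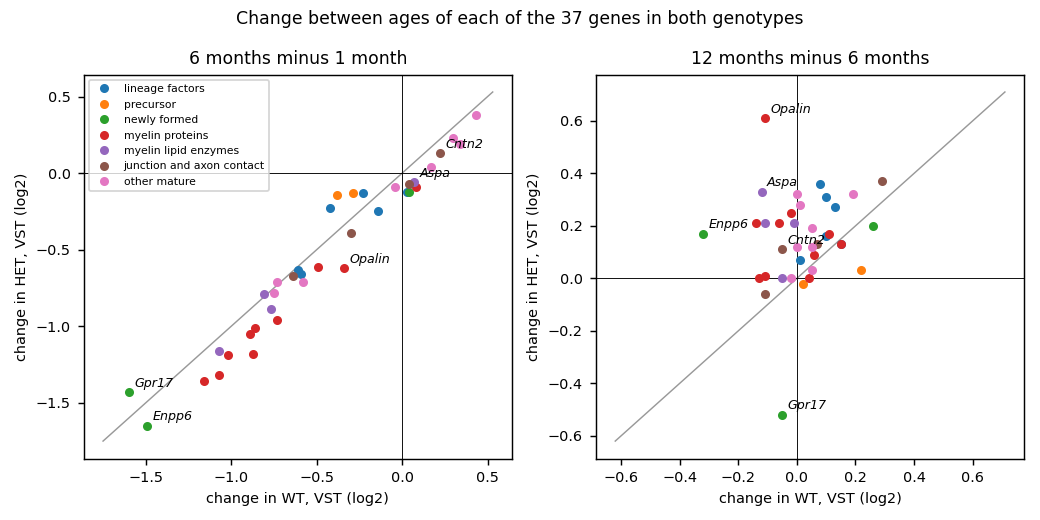
Change of each of the 37 genes between 1 and 6 months and between 6 and 12 months (panels), in WT mice (horizontal axis) against HET mice (vertical axis), as differences in group means in log2 VST units, 6 mice at each age. Gpr17, Enpp6, Cldn11 and Mog lie at the lower left of the first panel with falls above 1 in both genotypes; the 2 axes of a panel share no mice.

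Levels of the mature genes varied together between mice, more so at 1 month than later. Over the 36 postnatal mice, the 325 pairs of the 26 mature genes had a median Pearson r of 0.43 (from -0.45 to 0.89), computed on each mouse's deviation from its group mean so that age and genotype levels were removed. Within ages, with 12 mice each, the median was 0.70 at 1 month, 0.40 at 6 months and 0.24 at 12 months, and 0.07 at E14.5. Over the postnatal mice, the precursor genes had a median r of -0.01 with the mature genes, Gpr17 0.11, Bcas1 0.26 and Enpp6 0.41, and Pdgfra and Cspg4 had r = 0.86 with each other. The genes of a mouse share its library, and these values describe these mice only.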

How the data were processed

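Cortical RNA-seq of 48 male mice was taken from the table the authors deposited, which holds variance-stabilised values on a log2 scale for 24444 genes. Per the labels and the study's methods, reads were aligned to mm9 with STAR 2.5.2b, quantified with Salmon 0.11.3, and transformed with DESeq2 1.22.2, and batch was then removed. The means of replicates 1 to 3 and of replicates 4 to 6 were equal to within 3.38e-14 for each gene, so the deposited values hold no batch difference to test. The main limma fits did not allow for this earlier removal. Exact p-values used all splits of the mice without regard to these sets of replicates. The lowest level of the scale was 2.1433, at which 15.7% of values lay, with 6.1% below. The labels and the methods name different library kits, so whether counting used strand is not known here. The table holds no counts, so no counting interval is given. Read totals of the libraries were used as a covariate in an alternative.

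Groups were taken from the labels. Genes with a mean at least 0.5 above the floor in the mice compared were tested with limma 3.58.1 in R 4.3.3 with a trended prior, 6 mice against 6, and a single fit of 48 mice gave the tests of whether a difference changed with age. The p-values were adjusted over all genes tested (Benjamini-Hochberg), and a gene was called at an adjusted p below 0.1. In simulated data with independent genes and the spreads of the 1-month mice, the fits recovered most planted changes of 0.5 and 1. The genotype differences tested for the 37 genes were all smaller than 0.5, and changes of that size were not simulated. Exact p-values come from all splits of 6 against 6 mice, two-sided. The labels do not say whether mice of a group came from separate litters, so p-values measure the spread between these mice. The labels do not tie same-numbered WT and HET mice to each other. Their deviations from the group means correlated above 0.1 in 4 of 6 pairs at E14.5 (mean r 0.23) and in 0 or 1 of 6 at the other ages, so not every pair did at any age, and no block was used. No 2 columns were identical.

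The 37 genes, the lists of other lineage genes and of markers of astrocytes, microglia, vessels, neurons, meninges and choroid plexus, ganglionic eminence, striatum, thalamus and midbrain, hindbrain and spinal cord, and the tests were chosen with earlier results of these data known. All 37 are named. Levels in every group are given for 12 genes chosen by name, and for those with an unadjusted p below 0.01 in a genotype comparison or called in one, and other lists are represented by called genes or by up to 3 with the lowest p. Cldn11, Trf, Mal and the other genes given in full fall under this rule. The motifs were chosen after the values were seen. Alternatives covered filters, threshold, normalization, variance prior, depth, batch set, pairing, the samples in the fit and leaving out each mouse.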

Additional observations from a re-analysis of the deposited data

Results flagged for a closer look

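In 22 of 192 combinations of gene and group (24 genes in 8 groups of 6 mice), the lowest or the highest mouse stood apart from the other 5 by more than the critical value of Dixon's gap test, where chance flags about 1 in 20 groups. The values are log2 VST levels. At E14.5, HET replicate 1 was the lowest of its group for Chd8 (11.60), Olig2 (8.82), Cspg4 (7.57) and Adamts4 (8.32), and HET replicate 2 was the lowest for Cldn11 (7.45). WT replicate 5 was the lowest of the WT embryos for Pdgfra (9.28) and the highest for Cnp (8.82) and Fa2h (3.55), and it also had the highest mean of midbrain, hindbrain and spinal cord markers at that age. WT replicate 6 was the lowest for Nkx2-2 (6.05). At 1 month, WT replicate 5 was the highest for Pdgfra (11.23) and HET replicate 1 the lowest for Enpp6 (8.70). At 6 months, HET replicate 4 was the lowest for Enpp6 (7.11), Mbp (15.84) and Cldn11 (11.01), HET replicate 5 the highest for Olig2 (9.70) and Gpr17 (10.68), WT replicate 2 the highest for Myrf (10.88) and WT replicate 5 the highest for Mog (10.41). At 12 months, WT replicate 6 was the lowest for Chd8 (11.36) and Cspg4 (9.12), HET replicate 6 the highest for Chd8 (11.17) and HET replicate 1 the highest for Mag (12.03). The tests of whether the genotype difference changed between ages called 0 of the 37 genes.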

How the results depend on the processing

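Among counts of the 37 genes, 350 values under alternatives that kept all mice lay within 1.5 times the reported count and 24 did not, and with mice left out 741 did and 31 did not. For single genes, 497 values kept their sign and their side of the threshold with all mice and 15 did not. With mice left out 669 did and 18 did not, of which 2 changed sign alone. In the fit with a replicate block at 6 months, 3 genes were called lower in HET mice (Mobp, Mal and Trf, adjusted p = 0.056, 0.030 and 0.072), 1 with the set of replicates as a covariate (Mal, adjusted p = 0.093), and 2 in the single fit of 48 with the block (Mog and Adamts4), with 20, 9 and 24 of all genes called lower in these fits. HET mice were closest to the WT mouse of the same number in 3 of 6 cases at E14.5 and in 1 of 6 at each other age, a hint of shared deviation at E14.5 from the data and not from the design. In the single fit of 48 with the block, 1 gene was called higher and 2 lower at 12 months (450 and 556 of all 17311 genes) and 1 higher and 3 lower at E14.5 (100 and 174 of all genes), and without the block 1 was higher at E14.5 (43 of all genes). Genes lower at E14.5 with an unadjusted p below 0.05 numbered 1 with depth as a covariate, 0 with either list of regional markers, 9 in the fit of 48 and 10 with its block, against 2. At 1 month they numbered 1 and 3 in those last fits, against 5, and at 12 months 1 without a filter, against 3. The shares of all genes at that p are not given for these fits. At E14.5 more genes of the whole table were also called in the fits of 48. Genes called higher in HET mice from 1 to 6 months numbered 1 at an adjusted p below 0.05, without a filter, without a trend and in the fit of 48, against 3. From 6 to 12 months they numbered 2, 0, 2 and 2 in the same order, against 9. Leaving out a mouse gave 1 to 5 lower genes at E14.5, 4 to 8 at 1 month and 1 to 6 at 12 months at an unadjusted p below 0.05; 0 to 1 called lower at 6 months; 0 to 2 called higher and 0 to 1 lower at 12 months; 1 to 2 falling in WT mice after E14.5; 1 to 4 rising in HET mice from 1 to 6 months and 2 to 12 from 6 to 12 months; and 0 to 1 called in the tests of changing differences (Bcas1 from E14.5 to 1 month, Opalin from 6 to 12 months). The WT change of Myrf from 1 to 6 months ranged from -0.02 to 0.08 and that of Bcas1 from -0.0032 to 0.07, reversing without 1-month replicate 1, and neither was called. The cause of these shifts was not tested. Genes near the floor at E14.5, such as Opalin, are compressed by the scale.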
